A study of Mus musculus with 75 samples.

Results

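The genes described here encode the proteins of the cytosolic ribosome of the mouse. They were chosen by symbol, as Rpl or Rps followed by a digit together with Rplp0, Rplp1, Rplp2 and Rpsa, after kinases of the Rps6k family and pseudogenes named as such were dropped. That gave 84 of the 20680 genes in the table of tissues and 84 of the 16954 genes in the table of parabionts. By role they are 42 proteins of the large subunit, 30 of the small subunit, the 3 stalk proteins Rplp0, Rplp1 and Rplp2, and 9 others. These 9 are 8 paralogs (Rpl3l, Rpl7l1, Rpl10l, Rpl22l1, Rpl36al, Rpl39l, Rps4l and Rps27l) and Rps19bp1, whose product is known to bind Rps19 and is no ribosomal subunit. The locus Rps4l is listed by RefSeq as a transcribed pseudogene and was kept because its symbol fits the rule.

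All mice were C57BL/6, were perfused with PBS and carried no listed transgene. Untreated aged mice of 22 months and young mice of 3 months gave 11 tissues: choroid plexus, hippocampus, liver, lung, colon, thymus, spleen, bone marrow, and the cervical, inguinal and mesenteric lymph nodes. There were 63 libraries, 3 of each age in 8 of the tissues; liver had only 2 from aged mice, and bone marrow and cervical lymph nodes only 2 from young mice. In the second experiment choroid plexus came from parabionts, mice whose circulations are joined by surgery. A parabiont of 3 months was joined to a partner of its own age (young isochronic, 3 libraries) or to an old partner (young heterochronic, 3 libraries), and a parabiont of 22 months to an old partner (old isochronic, 3 libraries) or to a young one (old heterochronic, 2 libraries). RNA of choroid plexus was purified with the RNA MicroPrep kit in both experiments and that of the other 10 tissues with miRNeasy, so a difference between choroid plexus and the other tissues cannot be told apart from one between kits. Libraries held 187827 to 1134770 reads in tissues and 534663 to 992000 in parabionts, and the labels name a separate mouse for each replicate.

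Ribosomal proteins assemble with ribosomal RNA into the large and small subunits, which join on an mRNA to make protein. Nearly every cell needs a full set of them, and cells that divide or secrete much protein build more ribosomes. Most mouse ribosomal protein mRNAs start within a run of pyrimidines, the 5' terminal oligopyrimidine tract, through which growth signalling by mTOR governs their translation. A few genes have paralogs whose use differs between tissues, such as Rpl3l in striated muscle and Rpl10l and Rpl39l in testis.

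The stretch around the start of transcription is shown for 7 of the genes whose levels the results turn on, since it is where the pyrimidine tract begins and it differs between some parents and paralogs. Each is 30 bases long, 15 on either side of the start annotated by RefSeq on GRCm38.p6, read 5' to 3' on the gene's strand. Capitals mark 4 short strings that can overlap, searched on the gene's strand: CTTTC, then the variant CTCTT, the variant CTTTT and the variant CTTCC. The stretches lie at chr3:90213634-90213663 (minus strand) for Rps27, chr9:66946071-66946100 (plus) for Rps27l, chrX:134585639-134585668 (plus) for Rpl36a, chr12:69184053-69184082 (minus) for Rpl36al, chr7:118116133-118116162 (minus) for Rps15a, chr2:32961697-32961726 (plus) for Rpl12 and chr3:28805493-28805522 (plus) for Rpl22l1.
Rps27: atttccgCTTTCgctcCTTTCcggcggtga
Rps27l: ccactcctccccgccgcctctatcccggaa
Rpl36a: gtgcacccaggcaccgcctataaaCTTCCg
Rpl36al: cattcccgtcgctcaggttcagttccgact
Rps15a: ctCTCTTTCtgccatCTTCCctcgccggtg
Rpl12: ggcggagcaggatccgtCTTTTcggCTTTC
Rpl22l1: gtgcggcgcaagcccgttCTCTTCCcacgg
The parents Rps27 and Rpl36a held a match and the paralogs Rps27l and Rpl36al held none, while in the pair of Rpl22 and Rpl22l1 it was the paralog that held matches and the parent, Rpl22, held none at either of its annotated starts. Rps4x, Rps21, Rpl41, Rpl3l and Rpl7l1, whose stretches are not shown, held no match either. No match says only that these letters are not in these 30 bases.

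A RefSeq promoter was at hand for 64 of the 84 genes. Any of the 4 strings stood around the start of 29 of these 64, or 45.3%, against 17.7% of 27025 genes. The string CTTTC was the most frequent, in 26.6% of the ribosomal protein genes and 4.76% of all genes, followed by CTCTT in 20.3% against 4.68%. The string CTTCC stood in 18.8% against 7.83% and CTTTT in 9.38% against 3.68%. On the opposite strand CTTTC stood in 4.69% of the ribosomal protein genes and 4.21% of all genes, CTCTT in 1.56% and 4.99%, and CTTTT in 1.56% and 3.44%. There CTTCC stood in 15.6% and 8.54%, so this string was the more frequent among ribosomal protein genes on both strands. Over the whole window of 300 bases, the string CCGGAAG, the core that ETS factors such as GABP bind, was in 26.6% of ribosomal protein genes on the gene's strand and in 15.6% on the other, against 5.40% of all genes on either. The string TATAAA was in 9.38% against 9.77% on the gene's strand, and AAGATGG, part of the motif of YY1, in 7.81% against 4.17%. A match is a string of letters and not a tested site.

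Before levels are compared, the libraries of young mouse 2 need a word. Each library was fitted as a mixture of the organs of the other mice, with the ribosomal protein genes left out and the lymph nodes taken as 1 organ. A second organ took over 20% in 7 of the 11 libraries of young mouse 2 and in 3 of the 52 others. The hippocampus library of young mouse 2 fitted to 36.6% hippocampus and 57.7% lymph node, its lung library to 66.9% liver, its mesenteric lymph node library to 48.9% colon, and its spleen library to 50.4% lung and 0% spleen. Its liver library took 31.7% thymus, its thymus library 39.1% lymph node and its cervical lymph node library 32.4% hippocampus. All defining markers were found in every library of choroid plexus, hippocampus, liver, lung, thymus, colon and bone marrow. The shares of the library and the counts of genes called by tissue are therefore given with and without young mouse 2.

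Ribosomal protein genes together took the smallest share of the library in choroid plexus, liver and hippocampus and the largest in lymph nodes and spleen. The share is taken of the summed values over 1 row a gene, so rows not kept are outside it. In choroid plexus the share was 1.19% at the lowest, 1.29% at the median and 1.42% at the highest of 6 libraries. In liver it was 1.20%, 1.33% and 2.50%, and without young mouse 2 the highest was 1.62%. In hippocampus it was 1.43%, 1.63% and 5.58%, the last in young mouse 2, without which the highest was 1.67%. Lung stood next, at 1.63% to 2.84%, and without young mouse 2 its lowest was 2.56%. These 4 tissues apart, every library held at least 3.53%, so that without young mouse 2 the shares of choroid plexus, liver, hippocampus and lung did not overlap with those of any other tissue.

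Colon held 3.53% to 3.93%, bone marrow 3.96% to 5.02% and thymus 4.63% to 7.21%, or up to 5.98% without young mouse 2. Cervical lymph nodes held 5.53% to 9.89%, spleen 4.24% to 7.45%, inguinal lymph nodes 4.07% to 9.40% and mesenteric lymph nodes 6.32% to 9.00%. The shares of the 3 lymph nodes and spleen overlapped with each other. Without young mouse 2 mesenteric lymph nodes held 7.74% to 9.00% and spleen 5.74% to 7.45%, and these 2 no longer overlapped. The lowest inguinal library, of aged mouse 3, fitted to 43.3% lymph node and had the highest summed fat cell markers of that tissue, 20066, and the part of this in its low share was not tested. The share depends on what else fills a library: summed deposited values had a median of 14547 in liver against 9511 in choroid plexus and 8846 in hippocampus, although the shares of liver and choroid plexus overlapped. Markers of B cells, a list of 5 genes, summed to 1.3 to 6.5 in choroid plexus, 733 to 1742 in spleen and 367 to 1286 in mesenteric lymph nodes, and they reached 801 in the hippocampus library of young mouse 2 against at most 4.87 in the other hippocampus libraries. In bulk tissue a lower share may come from fewer cells of a type or less RNA per cell, which cannot be told apart.

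**Figure D1:**
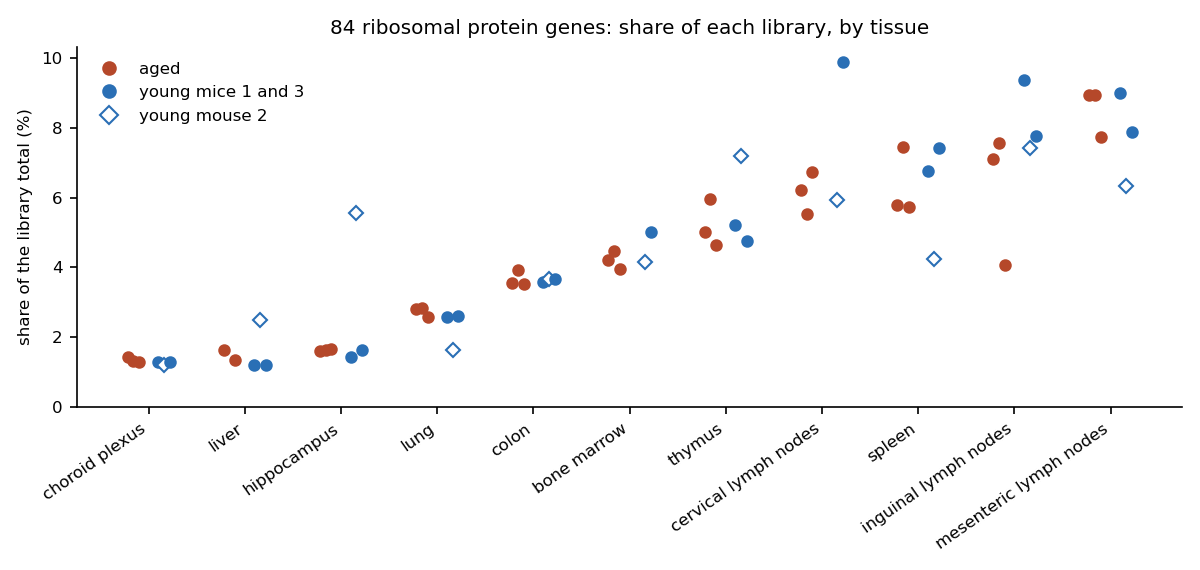
Share of each library's total taken by the 84 ribosomal protein genes, in percent, by tissue; red points are aged mice, blue points young mice, and open diamonds young mouse 2. Choroid plexus, liver and hippocampus sit lowest and the lymph nodes and spleen highest, and the hippocampus library of young mouse 2 stands at 5.58%, apart from the other hippocampus libraries.

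Levels were then tested gene by gene, each tissue against the mean of the other 10, with limma fitted over 20179 genes on log2 values and called where the adjusted p (Benjamini-Hochberg) was below 0.05. Values are compared within a gene and not between genes, and the 11 contrasts share libraries. In choroid plexus 76 of the 84 ribosomal protein genes were lower and 1 was higher, where 24.9% of all genes were lower and 26.1% higher. The median of their log2 differences was -1.17, against -0.03 over all genes. Every role was low there: 40 of the 42 large subunit genes (median -1.13), 29 of the 30 small subunit genes (median -1.24) and 3 of the 3 stalk genes (median -1.26) passed as lower, and 4 of the 9 others did. Without young mouse 2, with all its tissues left out as in every such level count, the number called was 77 again.

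Rpl12, a large subunit protein at the base of the stalk, showed the smallest p in choroid plexus. Its values were 18.1, 17.6 and 17.4 in aged and 19.1, 20.4 and 12.6 in young choroid plexus, against 182, 143 and 107 in aged and 201, 155 and 197 in young mesenteric lymph nodes. The groups lay far apart, with the highest choroid plexus library well below the lowest lymph node library. The log2 difference of choroid plexus from the other tissues was -2.21 (SE 0.16, limma adjusted p = 4.22e-16). Of the libraries with a value of Rpl12 above 0, 11.1% gave a whole number of reads, against a median of 46.8% over the 84 genes, and how fractions of reads were counted is not given in the sources used here. Rpsa, a small subunit protein that is also known as a laminin receptor, had values from 36.1 to 49.8 in choroid plexus and from 238 to 518 in mesenteric lymph nodes, and a difference of -2.20 (SE 0.16). Rps4x, the X-linked copy of a small subunit protein, differed by -1.90, Rps3a1 of the small subunit by -1.79 and Rpl14 of the large subunit by -1.30, all called.

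Rpl41, which encodes the smallest ribosomal protein, did not follow the rest. Its values in choroid plexus were 969, 745 and 828 in aged and 782, 775 and 1003 in young mice, and its difference there was 0.08 (limma adjusted p = 0.50). Besides Rpl41, the genes not lower in choroid plexus were Rpl21, Rps15a and the paralogs Rpl3l, Rpl7l1, Rpl10l, Rpl39l and Rps27l. Reads of Rpl21 were almost never whole: 1.64% of the libraries with a value above 0 gave a whole number of reads, so nearly all its values hold fractions of reads.

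In hippocampus 75 genes were lower and 4 higher, where 22.3% of all genes were lower and 25.6% higher, with a median of -1.08 against -0.10. Without young mouse 2, whose hippocampus library fitted mostly to lymph node, 81 were called and the median was -1.39. The large subunit had a median of -1.06, the small subunit -1.19 and the stalk -1.17. Rplp0, the scaffold of the stalk, was lower by 1.83 on the log2 scale in hippocampus, Rps9 of the small subunit by 1.61, Rpl10 of the large subunit by 1.44 and Rpl41 by 1.13. The mean over libraries was lowest in hippocampus for 54 of the 84 genes and in choroid plexus for 24 once young mouse 2 was left out; with it the numbers were 20 and 58.

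Lymph nodes and spleen stood at the other end. In mesenteric lymph nodes 74 genes were higher and none lower, where 7.19% of all genes were higher and 6.05% lower, and the median was 0.93 against -0.10. Inguinal lymph nodes had 72 higher, where 6.8% of all genes were higher and 7.84% lower (median 0.71), cervical lymph nodes 69, where 5.22% were higher and 3.89% lower (median 0.72), and spleen 64, where 8.47% were higher and 7.2% lower (median 0.54). None of the 84 was called lower in any of the 3. Without young mouse 2 the numbers higher were 73 in mesenteric, 72 in inguinal and 71 in cervical lymph nodes and 72 in spleen. For 63 of the 84 genes, leaving out young mouse 2, the mean was highest in mesenteric lymph nodes, and with it for 66.

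Rps27, a zinc finger protein of the small subunit, was among the genes with the smallest p in mesenteric lymph nodes. It read 601, 481 and 489 in aged and 482, 309 and 651 in young mesenteric lymph nodes, against 73.7 to 118 in choroid plexus. The difference from the other tissues was 1.40 (SE 0.16, limma adjusted p = 1.42e-07), with 1.32 for Rpl12, 1.25 for Rps24 of the small subunit, and 0.94 each for Rpl37 and Rpl4 of the large subunit. In the other lymph nodes and in spleen the genes with the smallest p were Rps21 in cervical lymph nodes (1.02), Rps14 in inguinal lymph nodes (0.99) and Rps13 in spleen (0.79). All 3 are of the small subunit. In cervical lymph nodes the number called was 15 without young mouse 3, whose library had the highest share.

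Lung and liver were low in most genes. In lung 67 were lower and 2 higher, where 7.39% of all genes were lower and 16.9% higher, with a median of -0.54 against 0.04. In liver 54 were lower and 3 higher, where 19.2% were lower and 16.1% higher, with a median of -0.49 against -0.27. The number called in liver was 28 without aged mouse 3 and 29 without aged mouse 1, the mice of the only aged liver libraries. Without young mouse 2, 70 were lower and 2 higher in lung, and 67 lower and 8 higher in liver. When values were divided by the column total, the median of all genes in liver moved by -0.61 and that of the ribosomal protein genes to -1.44, a gap of -0.56 between them. Rpl22l1 had the smallest p among the lower genes in both tissues, at -0.88 in lung and -0.81 in liver.

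Bone marrow, thymus and colon lay near the middle. Bone marrow had 22 higher and none lower, where 12.9% of all genes were higher and 21.4% lower, with a median of 0.31 against -0.29. Without young mouse 3 its number called was 3 and without young mouse 2 it was 48, and these 2 mice gave the young libraries of bone marrow. The number was 14 without aged mouse 1 and 12 without aged mouse 3. Thymus had 3 higher, among them Rps13 (0.36) and Rpl29 (0.45), and 1 lower, Rpl22l1 (-0.36), where 10.8% and 11.3% of all genes were called, and it had 12 called without young mouse 2, 1 without young mouse 1 and 0 without any 1 of the aged mice. Scaling mattered in thymus, where 51 were higher and 0 lower after quantile normalization, and 68 higher and 0 lower when values were divided by the column total. In colon 6 were higher and 6 lower, where 18.3% and 14.4% were called, with the members' median at -0.09 and that of all genes at -0.09, and after quantile normalization 1 was higher and 12 lower. The number called in colon was 23 without young mouse 2, and 4, 7 and 5 without aged mouse 1, 2 and 3.

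**Figure D2:**
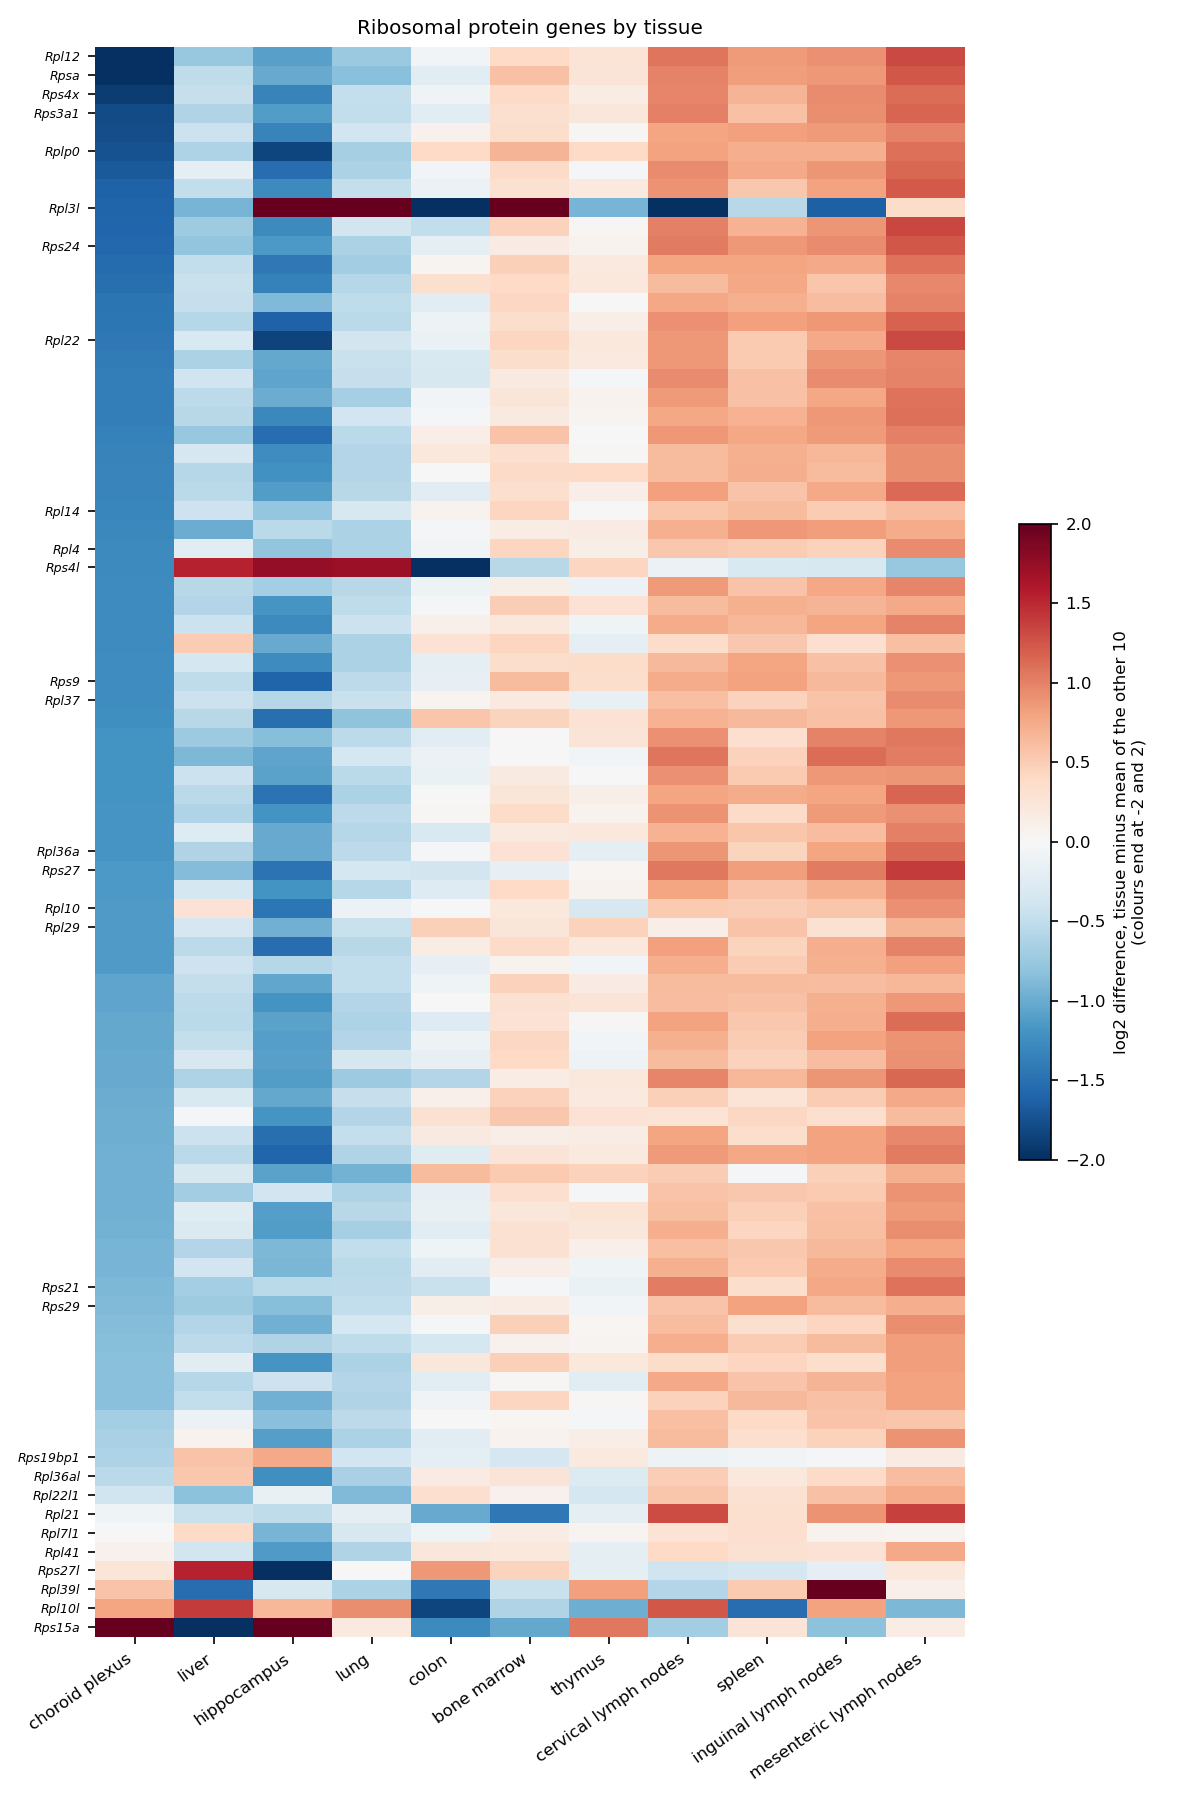
Log2 difference of each tissue from the mean of the other 10 (colour) for the 84 ribosomal protein genes (rows), ordered from the lowest to the highest difference in choroid plexus, with colours ending at -2 and 2 and labels on some of the genes named in the text. Nearly all genes share the low columns of choroid plexus and hippocampus and the high columns of the lymph nodes, and the paralogs Rps4l, Rps27l and Rpl3l, together with Rps15a, break the pattern.

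A small number of genes ran against the common profile. Over the 11 tissue means, without young mouse 2, the correlation of each gene with the median profile of the members was negative for 5 genes: Rps4l (-0.54), Rps15a (-0.53), Rpl10l (-0.35), Rpl3l (-0.22) and Rps19bp1 (-0.21). Rps27l came next with 0.25. The genes closest to the common profile were Rps3 (0.997), Rps27a (0.997), Rps20 (0.996) and Rps7 (0.995), all of the small subunit. These values describe 11 tissues that share mice and libraries, and the median profile contains the genes themselves. The range of tissue means on the log2 scale was largest for Rpl3l (6.56), Rps15a (6.38), Rpl39l (5.98), Rpl10l (4.53) and Rps27l (3.83), and smallest for Rps19bp1 (1.29), Rpl7l1 (1.35) and Rps15 (1.52). Of these, Rpl3l, Rpl39l and Rpl10l were listed at 0 in whole tissues, so their ranges depend on the constant added before taking logs.

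Rps27l, a paralog of Rps27 known as a target of p53, was highest in liver and lowest in hippocampus. It read 180 and 195 in aged and 232, 106 and 168 in young liver, the 106 in young mouse 2. In hippocampus it read 9.62, 15.8 and 14.8 in aged and 20.1, 58.4 and 7.69 in young mice, the 58.4 again in young mouse 2. Every liver library lay above every hippocampus library. The difference from the other tissues was 1.54 in liver (SE 0.22, limma adjusted p = 1.21e-07), -2.21 in hippocampus and 0.86 in colon. Its value in liver depended on the scaling, with 0.82 after quantile normalization and 0.59 (adjusted p = 0.0160) when values were divided by the column total. In choroid plexus it was 0.24 (adjusted p = 0.315). As a ratio to its parent Rps27, without young mouse 2, it stood at 1.43 to 2.55 in liver, 0.609 to 1.03 in choroid plexus, 0.364 to 1.10 in colon and 0.116 to 0.163 in mesenteric lymph nodes. The ratio is one of deposited values and serves to compare tissues, not to say which of the pair is more abundant.

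Rpl36al, the autosomal copy of the X-linked Rpl36a, showed a like tilt towards liver as a ratio to its parent. Its own tissue mean, without young mouse 2, was highest in mesenteric lymph nodes (256), and its correlation with the median profile was 0.80. Rpl36al read 251 and 244 in aged and 229, 145 and 249 in young liver, against 45.7 to 136 in hippocampus. Its ratio to Rpl36a, without young mouse 2, was 2.82 to 3.56 in liver, 1.65 to 2.27 in choroid plexus and 0.869 to 1.15 in mesenteric lymph nodes, with no overlap among the 3 tissues. The gene itself was higher in liver by 0.54 (SE 0.14, limma adjusted p = 0.00121), but the sign depends on the scaling, with -0.41 when values are divided by the column total and -0.28 after quantile normalization. It was lower in choroid plexus (-0.54), hippocampus (-1.23) and lung (-0.65).

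Rpl22l1, whose parent Rpl22 is a large subunit protein that its paralog can replace, was not called lower in hippocampus, with a difference of -0.14 (limma adjusted p = 0.399), and its ratio to Rpl22, without young mouse 2, was 0.344 to 0.876 in hippocampus, 0.209 to 0.440 in choroid plexus and 0.089 to 0.153 in mesenteric lymph nodes. Rpl22 itself had its highest tissue mean in mesenteric lymph nodes (1047) and its lowest in hippocampus (99.7). Rpl7l1, a paralog of Rpl7 known from ribosome assembly, was among the genes that varied least, with tissue means from 14.2 in hippocampus to 36.3 in liver. Rps19bp1, known for its link to the deacetylase SIRT1, was the reverse of the subunit genes in hippocampus, higher by 0.75 (SE 0.21, limma adjusted p = 0.00205).

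Rps4l, the pseudogene copy of Rps4x, was high in hippocampus, lung and liver. It read 30.2, 24.1 and 32.8 in aged and 27.1, 15.5 and 43.1 in young hippocampus, and 22.6 to 35.3 in lung. In mesenteric lymph nodes it read 3.52 to 10.2, below every hippocampus and lung library. It was higher in hippocampus by 1.76, in lung by 1.71 and in liver by 1.54, and lower in colon (-2.13) and choroid plexus (-1.27), each called by limma. The call in liver was lost when values were divided by the column total, at 0.59 (adjusted p = 0.225). In colon the difference was -1.35 without aged mouse 3 and -1.14 with a constant worth 1 read, both called. This difference averages both ages. The aged colon libraries were near 0, while every young colon library lay above every mesenteric lymph node library. Its ratio to Rps4x, without young mouse 2, was 0.181 to 0.311 in hippocampus and 0.005 to 0.011 in mesenteric lymph nodes. Whole reads made up 48.4% of its values, near the median of the 84 genes.

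Rps15a, a small subunit protein, was recorded at only a few reads in most tissues and was an exception among its role. It read 36.7, 37.0 and 24.8 in aged and 24.8, 10.7 and 36.4 in young hippocampus, the 10.7 in young mouse 2. In choroid plexus it read 15.4, 8.55 and 6.71 in aged and 13.0, 12.4 and 12.5 in young mice. In liver it was listed at 0 in both aged libraries and at 0, 1.98 and 1.37 in young ones. It was higher in hippocampus by 4.01 (SE 0.74, limma adjusted p = 1.14e-05) and in choroid plexus by 2.64 (SE 0.74, adjusted p = 0.00262), and lower in liver by 4.48. With a constant worth 1 read the 3 differences were smaller, at 3.00, 1.70 and -1.84, and all were still called. Unlike most members, 98.2% of its values were whole reads, against a median of 46.8% over the 84 genes, and how reads of its near-identical copies were counted is not given in the sources used here.

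Rpl3l, the striated muscle paralog of Rpl3, was above 0 in 25 of 63 libraries and never exceeded 7.15. It read 3.63, 7.15 and 1.60 in aged and 4.89 and 2.86 in young bone marrow, and was listed at 0 in all cervical lymph node and colon libraries. Bone marrow was higher by 4.77 (SE 1.01, limma adjusted p = 0.000183), and by 1.79 with a constant worth 1 read. The gene was also called higher in lung, by 0.91 to 3.71 over the settings, and in hippocampus, by 0.65 to 3.13. These calls were lost in 4 and 3 of the 13 alternatives. Without young mouse 2 its ratio to Rpl3 was 0.015 to 0.060 in bone marrow and 0.012 to 0.069 in lung. In hippocampus the ratio was 0.018 to 0.036. Summed markers of striated muscle, a list of 5 genes, were 10.4 to 15.3 in bone marrow and 14.1 to 47.9 in colon, where Rpl3l was at 0. The source of the Rpl3l reads was not tested. The 2 testis paralogs stayed near 0: Rpl39l was above 0 in 17 of 63 libraries with a highest value of 10.1, and Rpl10l in 40 of 63 with a highest value of 2.97.

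**Figure D3:**
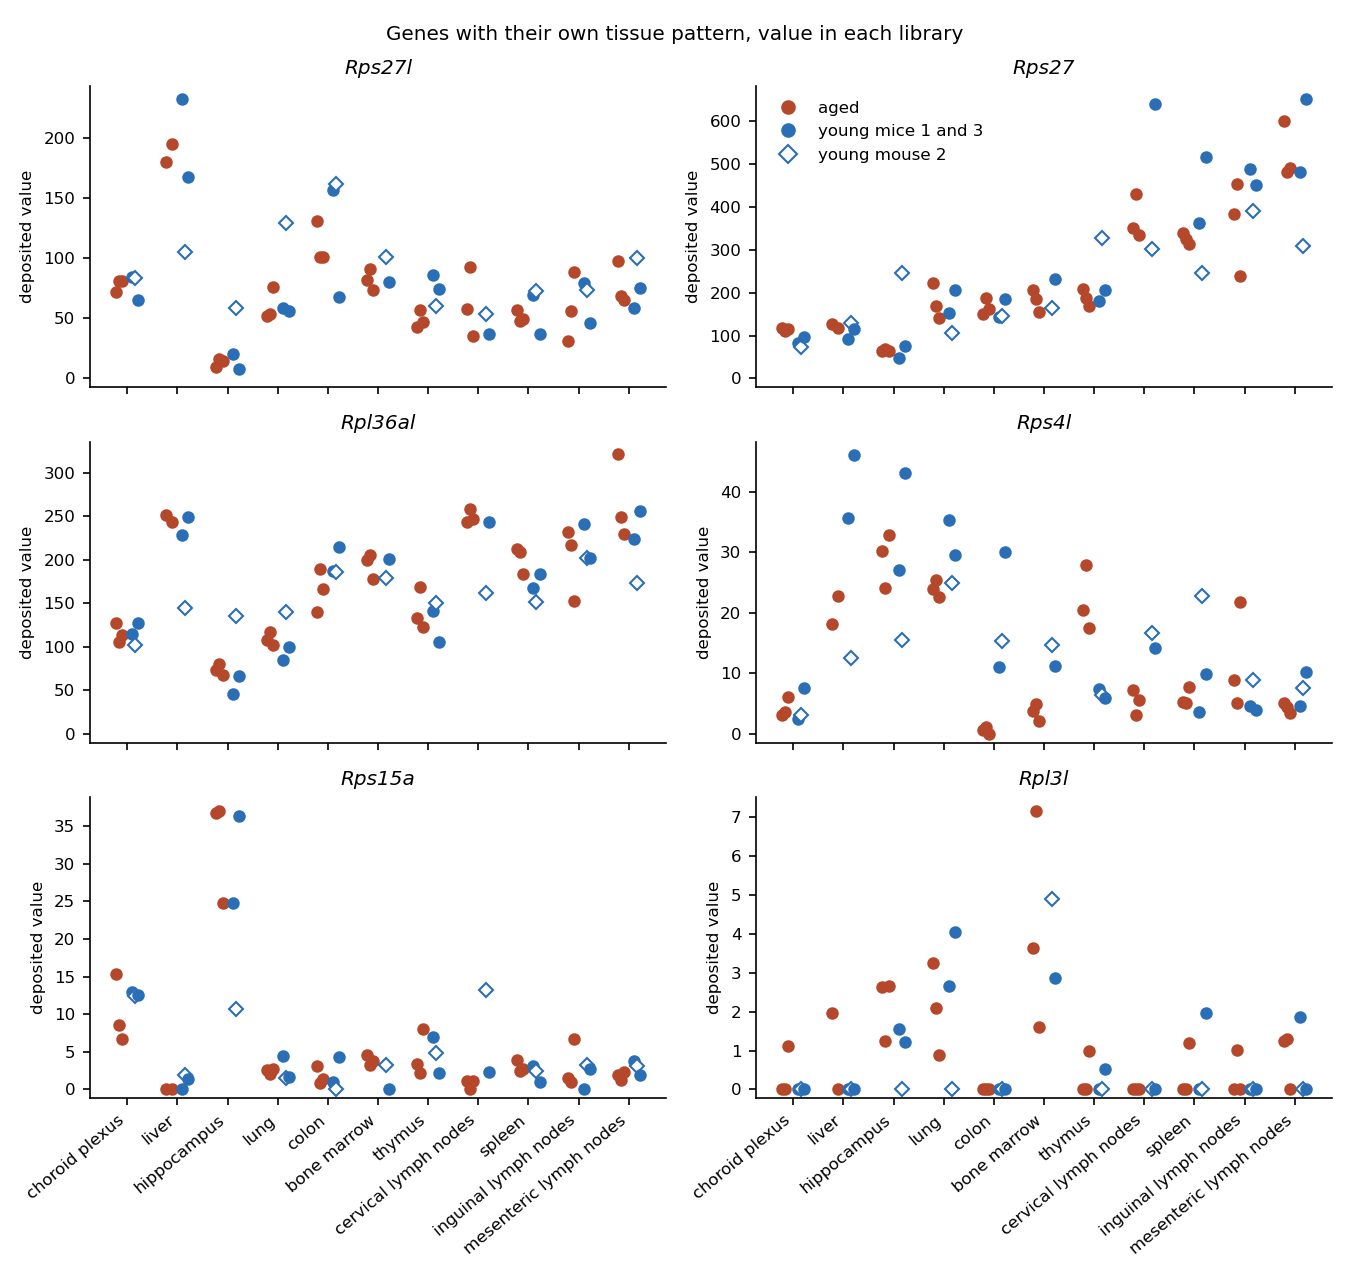
Deposited values of Rps27l, Rps27, Rpl36al, Rps4l, Rps15a and Rpl3l in every library by tissue (red aged, blue young, open diamonds young mouse 2). Rps27l peaks in liver where its parent Rps27 does not, Rps4l and Rps15a peak in hippocampus, and Rpl3l is above 0 in all 5 bone marrow libraries.

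Other genes of the same pathway were compared from lists. These are 38 translation factors, 70 tested genes of ribosome biogenesis, 22 of growth signalling to the ribosome and 78 mitochondrial ribosomal proteins. In choroid plexus 25 of the 38 translation factors were lower and 2 higher (median -0.44), among them Pabpc1, the poly(A) binding protein (-1.66), and 41 of the 70 biogenesis genes were lower and 8 higher (median -0.70), where 24.9% of all genes were lower and 26.1% higher. There Gar1, a protein of H/ACA particles, was lower (-1.59), while Polr1a, the large subunit of RNA polymerase I, was higher (2.51). In mesenteric lymph nodes 20 of the 38 translation factors and 20 of the 70 biogenesis genes were higher and none lower, where 7.19% of all genes were higher and 6.05% lower. Called there were Fau, which encodes a ribosomal protein fused to a ubiquitin-like domain, at 0.92, Eif3e, a subunit of initiation factor eIF3, at 0.76 and the nucleolar protein Npm1 at 0.85.

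Mitochondrial ribosomal proteins, which serve translation inside mitochondria, followed another order. In liver 52 of 78 were higher and none lower (median 0.71), with Mrpl12 at 1.59, where 54 of the 84 cytosolic genes were lower and 16.1% of all genes were higher and 19.2% lower. In choroid plexus, where 26.1% of all genes were higher and 24.9% lower, 28 were higher and 18 lower (median 0.10), with Mrps6 at 3.13. In lung 34 were lower and none higher (median -0.41), where 7.39% of all genes were lower and 16.9% higher. Of the 22 growth signalling genes 7 were higher and 9 lower in choroid plexus, with Myc, which drives ribosome production, lower by 6.89 and Eif4ebp2, an inhibitor of cap binding, lower by 2.21. The size of the Myc difference depends on the constant added before taking logs where its values lie near 0. Its library values are not given here.

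With age few ribosomal protein genes were called within a tissue. Of 81 to 83 tested per tissue, limma called 1 in colon and 0 in each of the other 10 tissues. In simulated data the fit recovered 19 of 100 genes changed by 1 on the log2 scale in colon and 35 of 100 in choroid plexus. A gene not called may thus still have changed. Those with an unadjusted p under 0.05 numbered 14 in colon, 9 in inguinal lymph nodes, 9 in lung, 8 in spleen, 6 in thymus, 5 in bone marrow, 3 in mesenteric lymph nodes, 2 in choroid plexus, 1 in hippocampus, 1 in cervical lymph nodes and 0 in liver. As a share of the genes tested this was 17.3% in colon against 9.79% of all genes, 11.0% against 4.20% in inguinal lymph nodes, 10.8% against 9.05% in lung, 9.88% against 8.44% in spleen and 7.32% against 11.8% in thymus. It was 6.10% against 6.40% in bone marrow, 3.66% against 7.91% in mesenteric lymph nodes, 2.44% against 5.78% in choroid plexus, 1.20% against 3.24% in hippocampus and 1.22% against 7.01% in cervical lymph nodes, and in liver 3.94% of all genes had such a p. Over all genes the share called after adjustment was 0.0402% in colon, 0.183% in choroid plexus, 0.322% in thymus, 0.0758% in spleen and 0.0196% in cervical lymph nodes. It was 0.0068% in liver, 0.00653% in lung, 0.00688% in mesenteric lymph nodes and 0% in bone marrow, hippocampus and inguinal lymph nodes.

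Rps29, a zinc finger protein of the small subunit, was the gene called in colon. It read 367, 254 and 375 in aged and 150, 131 and 155 in young colon, with no overlap. The difference, aged minus young, was 1.17 (SE 0.20, limma adjusted p = 0.0463). The call sits at the threshold: the adjusted p ran from 0.0186 to 0.474 over the alternatives and was over 0.05 without aged mouse 1, without aged mouse 3 or without any 1 of the young mice. In lung the gene read 160, 255 and 258 in aged and 102, 79.6 and 129 in young mice, a difference of 1.11 that was not called (adjusted p = 0.424), and in liver it read 115 and 185 in aged and 101, 117 and 111 in young mice.

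Choroid plexus, the tissue the study centres on, showed little movement with age. The median difference of the 82 genes tested was 0.07, against 0.00 over all genes, and 60 of 82 were above 0. The smallest p went to Rps27, which read 118, 110 and 114 in aged and 81.7, 73.7 and 96.9 in young choroid plexus, a difference of 0.45 (limma adjusted p = 0.837). Next was Rps21 of the small subunit, at 402, 335 and 372 in aged and 354, 243 and 297 in young mice, a difference of 0.32 (adjusted p = 0.841). Neither passed.

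Medians in the other tissues ranged from -0.41 to 0.19. They were -0.41 in hippocampus, -0.37 in inguinal lymph nodes, -0.14 in cervical lymph nodes, -0.05 in thymus and 0.00 in bone marrow. They were 0.07 in colon, 0.12 in spleen, 0.14 in liver, 0.17 in mesenteric lymph nodes and 0.19 in lung. The hippocampus value rests on young mouse 2 and was 0.14 without it. In inguinal lymph nodes the median was -0.19 without aged mouse 3, the library that fitted least to lymph node. The sign also turned on 1 library elsewhere: the median was 0.22 in cervical lymph nodes without young mouse 3, and without young mouse 2 it was -0.07 in spleen, 0.15 in thymus and -0.14 in bone marrow. In mesenteric lymph nodes it was 0.01 and in lung 0.08 without young mouse 2. In liver the median lay above that of all genes by 0.03 as reported and below it by 0.14 after quantile normalization.

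Across tissues, Rps4l was the gene whose difference with age pointed most plainly both ways. In colon it read 0.636, 1.20 and 0 in aged and 11.0, 15.3 and 30.0 in young mice, a difference of -5.71 (limma adjusted p = 0.102). In thymus it read 20.4, 27.9 and 17.5 in aged and 7.43, 6.39 and 5.89 in young mice, a difference of 1.71 (adjusted p = 0.0728). Neither passed the test by itself, although the libraries of the ages did not overlap in either tissue. With a constant worth 1 read both passed, at -3.73 (adjusted p = 0.0040) and 1.61 (adjusted p = 0.0379).

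Rpl29, a large subunit protein, had a higher mean in aged than in young mice in 11 of 11 tissues. In spleen it read 38.4, 94.3 and 49.9 in aged and 21.8, 14.6 and 23.9 in young mice, a difference of 1.52 (limma adjusted p = 0.335), and in lung 18.5, 37.4 and 38.1 against 11.1, 6.61 and 14.5, a difference of 1.54 (adjusted p = 0.424). The young values of 14.6 in spleen and 6.61 in lung are those of young mouse 2, and without it the differences were 1.31 and 1.23. Whole reads made up 9.52% of the values of Rpl29, against the median of 46.8%. To ask this of all genes alike, the log2 values of each mouse were averaged over the 8 tissues that all 6 mice have, a comparison added after the data were seen. By that measure limma called 0 of the 84, where 0.0258% of all genes were called. At an unadjusted p under 0.05 there were 18, or 21.4%, against 9.74% of all genes. The mean of young mouse 2 includes its hippocampus, lung, spleen, thymus and mesenteric lymph node libraries. In each of these a second organ took over 20%, and the part of this in the count was not tested. Rpl29 had mean log2 values of 4.49, 5.33 and 5.13 in aged mice and at most 4.33 in young mice, a difference of 0.90 (SE 0.21, adjusted p = 0.199, from 0.0691 to 0.641 over the alternatives). Without aged mouse 2 it was 0.73.

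Rps21 was next, with mean log2 values of 9.13, 8.88 and 8.84 in aged and 9.44, 9.28 and 9.28 in young mice, a difference of -0.38 (limma adjusted p = 0.221). Its aged mean was the higher one in 1 of 11 tissues, which was choroid plexus. Rps14 (-0.46), of the small subunit, had the higher aged mean in 0 of 11 tissues, and Rpl21 (1.53), whose values are mostly fractions of reads, in 11 of 11. Values of the 3 aged mice did not overlap with those of the 3 young mice for 21 of the 84 genes, where 14.9% of all genes did not overlap. The aged mean was higher in 10 or more tissues for 4 of 84 genes, 4.76% against 2.24% of all genes, and in at most 1 tissue for 9, 10.7% against 7.86%. Tissues of 1 mouse are not independent, and these counts are descriptions. They include the libraries of young mouse 2 in which a second organ took over 20%.

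The difference with age in choroid plexus was set against that in the other 10 tissues in the same model. None of the 84 was called by limma, and 1.56% of all genes were called. An unadjusted p under 0.05 was found for 3, or 3.57%, against 9.89% of all genes. Rps21 had a contrast of 0.83 (adjusted p = 0.150), being higher with age in choroid plexus and lower on average elsewhere, and Rpl27 of the large subunit 0.65 (adjusted p = 0.314). Neither passed.

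**Figure D4:**
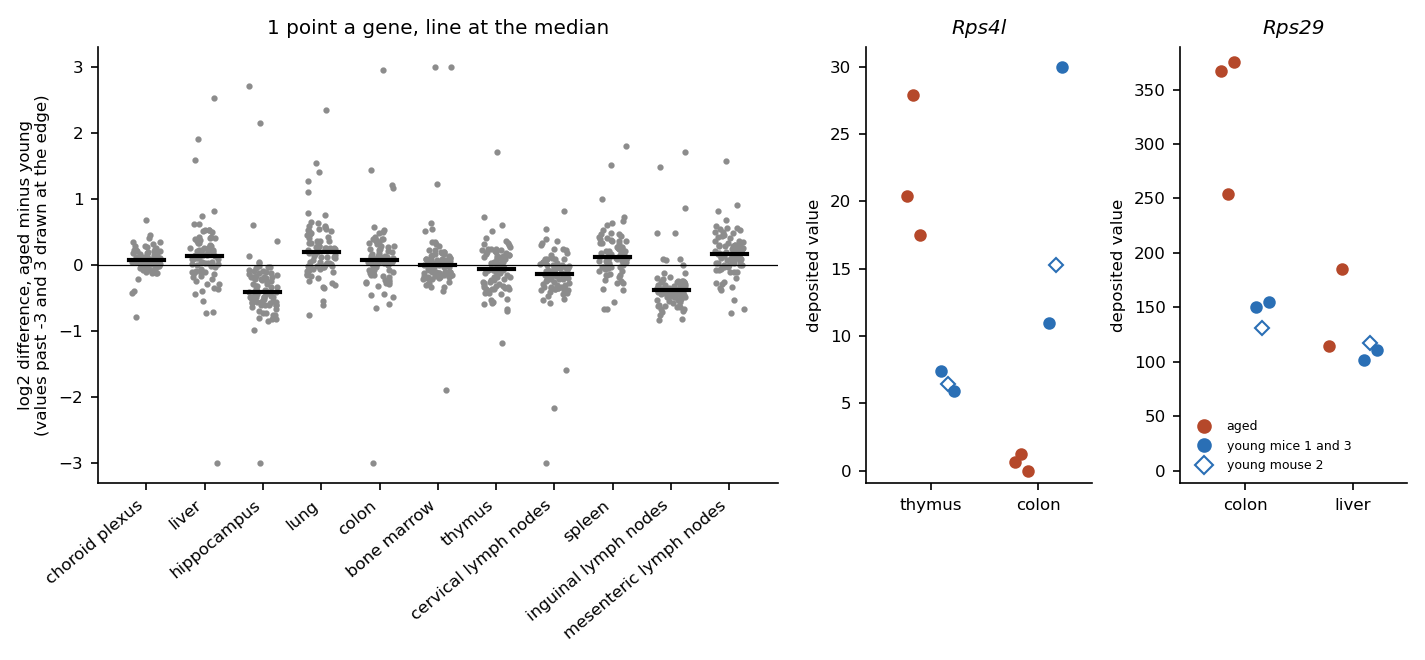
Left, aged minus young log2 difference of each ribosomal protein gene by tissue, with a line at the median and values past -3 and 3 drawn at the edge. Middle and right, library values of Rps4l in thymus and colon and of Rps29 in colon and liver (red aged, blue young, open diamonds young mouse 2). Medians lie between -0.41 and 0.19, and Rps4l lies higher in aged thymus and lower in aged colon with no overlap.

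In parabionts the share of the library taken by the 84 genes was 0.897% ± 0.025 in young isochronic (SD, n = 3), 0.952% ± 0.056 in young heterochronic (n = 3), 0.915% ± 0.024 in old isochronic (n = 3) and 0.968% ± 0.036 in old heterochronic mice (n = 2). Both heterochronic means were above the isochronic mean of the same age, with gaps of the order of the SDs. Depth differed along the same split. Young heterochronic libraries held 675913 to 773403 reads and young isochronic ones 746494 to 992000. Old heterochronic libraries held 534663 to 687909 reads and old isochronic ones 799608 to 886349. The part of depth in these gaps was not tested. The contrasts asked whether a partner of the other age moved these genes, and they share libraries. Limma called 0 of 83 genes tested in each of the 5 contrasts. For old minus young isochronic 1 gene had an unadjusted p under 0.05 and the median was 0.03, where 0.0788% of all genes were called. For young heterochronic minus young isochronic 13 did (median 0.09; 0% of all genes called), and for old heterochronic minus old isochronic 13 did (median 0.13; 0%). For old minus young heterochronic 4 did (median 0.06; 0.0909%), and for the difference between the age contrasts 2 did (median 0.04; 0%). Over all genes 4.74%, 6.19%, 8.57%, 8.27% and 6.07%, in the order given, had an unadjusted p under 0.05, against 1.20%, 15.7%, 15.7%, 4.82% and 2.41% of the ribosomal protein genes. The median over all genes ran from -0.02 to 0.00.

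Rps10, a small subunit protein, had the smallest p in several contrasts. It ranged from 92.6 to 109 in young isochronic, from 117 to 134 in young heterochronic, from 111 to 127 in old isochronic mice, and was 88.0 and 91.9 in old heterochronic mice. The old heterochronic pair lay below all other libraries and the young heterochronic group overlapped with the old isochronic one. Old minus young heterochronic was -0.48 (SE 0.11, limma adjusted p = 0.0928), old heterochronic minus old isochronic -0.37 (adjusted p = 0.415) and young heterochronic minus young isochronic 0.32 (adjusted p = 0.708). The difference between the age contrasts was -0.70 (adjusted p = 0.513).

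Rpl41 read 93.7 to 103 in old isochronic and 114 and 147 in old heterochronic mice, a difference of 0.41 (limma adjusted p = 0.415). Rps19, a small subunit protein whose loss causes Diamond-Blackfan anaemia, was 77.5 to 92.8 in young heterochronic and 54.4 and 75.4 in old heterochronic mice (-0.40, adjusted p = 0.479). Rps27l, the paralog high in liver, kept to 113 to 143 over all 11 libraries, and Rpl36al to 104 to 130. None of these passed. The 3 highest means over all 11 libraries were Rpl4 (219), Rps3 (218) and Rpl8 (203), and the 3 lowest Rpl10l (0.196), Rpl39l (0.205) and Rpl3l (0.929).

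High values are pressed together in the table of parabionts, which bears on any reading of these genes there. The top gene of a library held 2012 to 222839 reads in tissues and 848 to 993 in parabionts. The tables were scaled separately, so ratios between them are read only against other genes. Among the 76 ribosomal protein genes with a mean of at least 10 in young choroid plexus, the 90th percentile was 6.73 times the 10th in choroid plexus of the tissue table and 3.84 times in young isochronic parabionts. Over those genes the slope of log2 parabiont on log2 choroid plexus level was 0.479, and over all 7316 such genes 0.519. The ratio of the parabiont to the tissue value had a median of 0.847 for the ribosomal protein genes against 2.38 for all genes, and it was under 1 for 50 of the 76, against 8.65% of all genes.

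The ratios also differed from those of other genes of like level. Between the quartiles of the ribosomal protein genes in young choroid plexus, 52.4 and 153, their median ratio was 0.766 (38 genes), against 1.58 for the 1461 other genes in that range. Rpl41, at a mean of 854 in young choroid plexus and 109 in young isochronic parabionts, had the lowest ratio, 0.127. Ranked among all genes with a mean above 0, the median of the 76 ribosomal protein genes stood at percentile 94.7 in choroid plexus, both ages together. Over all 11 parabionts it stood at percentile 81.2. Experiment, surgery and scaling differ between the tables and cannot be told apart.

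**Figure D5:**
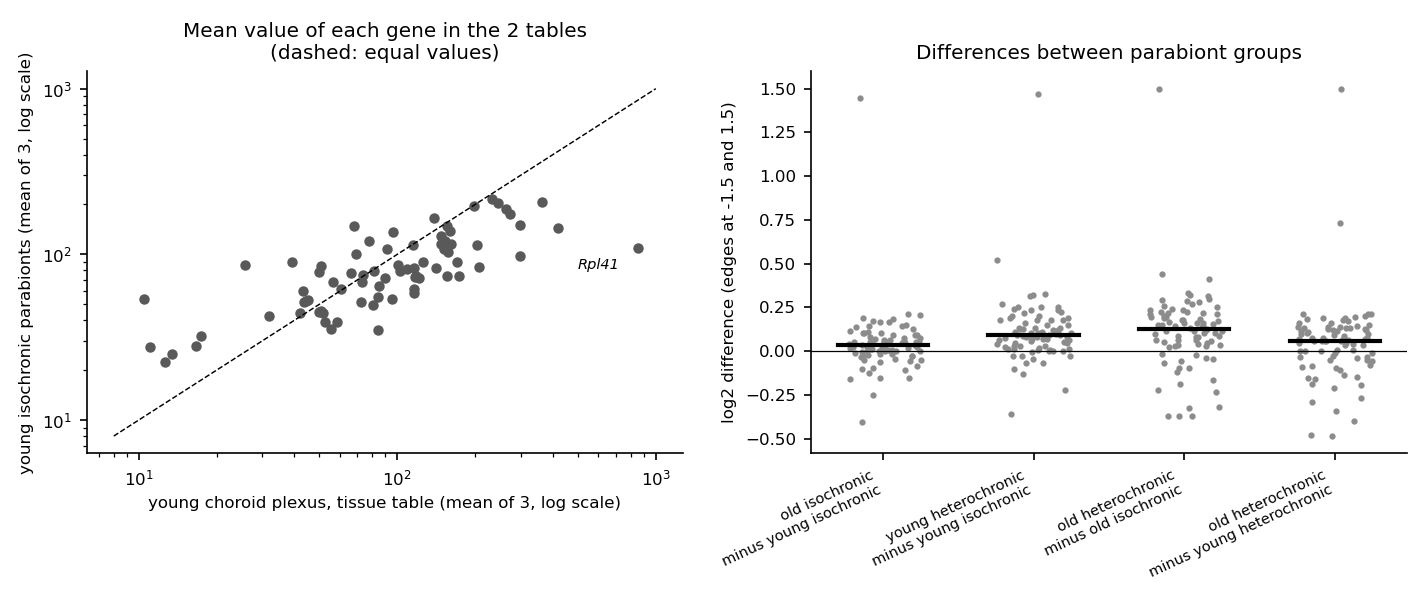
Left, mean of each of the 76 ribosomal protein genes in young isochronic parabionts against its mean in young choroid plexus of the tissue table, both on log axes, with a dashed line at equal values. Right, log2 difference of each gene in 4 contrasts of parabiont groups, with a line at the median, from 0.03 to 0.13; 50 of the 76 genes lie below the dashed line, and Rpl41, at 854 and 109, lies farthest from it.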

How the data were processed

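RNA of 63 tissue and 11 parabiont libraries was analysed of 75 samples in the labels; 1 sample had no matched column and 1 unmatched column was not used. Per the submitters' processing notes the authors used TopHat and mm9; how reads were counted and scaled is "not given in the sources used here". Values as deposited are a signal: judged from the numbers, weighted reads per transcript divided by 1 factor per library, with 78.0% to 85.6% of values in tissues and 85.3% to 86.8% in parabionts within 0.001 of a whole number of reads. Rows were named by RefSeq accession, and 1 row a gene was kept, that of highest mean; 8 of the 84 genes had 2 or more rows.

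Limma 3.58.1 in R 4.3.3 (trend, robust) was fitted to log2 values after adding a pseudocount, which was each library's smallest value above 0 taken at the median of libraries (0.0267 to 0.0619 for age, 0.0407 for tissues, 0.0421 for 8 tissues, 0.0499 for parabionts), so changes of low genes depend on it. Tested genes exceeded 4 pseudocounts in at least the number of libraries of the smaller group, and p was adjusted over all genes. Tissue contrasts carried the mouse as a term, except the flagged age differences of Rps4l and Rpl10l between tissues, which did not. Same-numbered aged and young mice did not vary together: 30 correlations ran from -0.142 to 0.0827. Named were the paralog pairs, up to 5 called genes a direction with the smallest p (otherwise the 2 with the smallest p, said not to pass), the genes with the largest and smallest range over tissues, and the highest and lowest in parabionts. Other genes named were chosen after their values were seen, and some genes that the rule names are not reported here. Members, lists and alternatives were chosen with earlier results of these data known. Alternatives were 2 other scalings, a larger pseudocount, no filter, no trend, the mean over rows, a replicate block, the tissues with the same kit, and leaving out each library in turn. In the fits over several tissues each mouse was left out in turn instead, with all its tissues. The fits were tested on simulated data.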

Additional observations from a re-analysis of the deposited data

Results flagged for a closer look

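The difference with age of Rps4l, the pseudogene copy of Rps4x, pointed in opposite directions in thymus and colon. It was higher in all 3 aged than in all 3 young thymus libraries and lower in all 3 aged than in all 3 young colon libraries. In a model of all tissues without a mouse term the difference between these differences was 7.44 on the log2 scale (limma adjusted p = 1.07e-05 over 20179 genes, of which 8 were called). Thymus and colon libraries of the same mouse were thus treated as independent, and this p does not allow for shared mice. The pair of tissues was also chosen after the opposite directions were seen, so this p is no independent evidence. Rpl10l, in lung against hippocampus, was the other such case, with a difference of 6.43 that did not pass (adjusted p = 0.269, also without a mouse term).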

How the results depend on the processing

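Of 396 counts of called ribosomal protein genes under the alternatives, 361 stayed within 1.5 times the reported count. The reported count was 0 in every age comparison but colon and in every parabiont contrast. This total thus says little about the level counts, several of which moved widely, as given below. Of 1411 values of single genes, 1325 kept direction and side of the threshold, 79 lost the call, 4 gained it and 3 reversed: Rpl36al in liver (-0.28 after quantile normalization, -0.41 scaled to the column total) and Rpl22l1 in thymus (0.16 by that scaling). Those kept include values of genes that were not called as reported and stayed so. The age count in colon was 0 scaled to the column total, 0 with the mean over rows or without the trend, 2 with a pseudocount of 1 read and, with the replicate block, 0; the block moved no other count beyond 1.5 times. The numbers do not pair the mice. In thymus the age count was 1 with the larger pseudocount. The level count in bone marrow was 14 after quantile normalization, 11 scaled to the column total and 8 among the tissues with the same kit; that in thymus was 51, 68 and 2, and 1 without the trend. In thymus the median of all genes moved by 0.44 by the second of these. The cause was not tested.

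Leaving out 1 library moved the age count from 0 to 2 in bone marrow and 0 to 1 in colon. In cervical lymph nodes it moved from 0 to 3 (young mouse 3). Level counts were refitted without 1 mouse at a time, all its tissues left out together. They moved from 3 to 48 in bone marrow, 15 to 71 in cervical lymph nodes and 4 to 23 in colon. In liver they moved from 28 to 75 and in thymus from 0 to 12. For levels between tissues, rescaling left the median of the ribosomal protein genes on the same side of the median of all genes in every tissue but colon; for age it changed side in liver. Genes of a few reads, such as Rpl3l, Rpl10l and Rpl39l, are limited by depth.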
